A study of Rattus norvegicus with 12 samples.

Results

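The kidneys of 3 rats killed 5 weeks after L-NAME was stopped (W5) were compared with those of 3 control rats (CTL), which together gave 6 of the 12 arrays of the series. The arrays were taken by their group name alone, and no measured value was used to choose them. All rats were male Sprague Dawley of 250 g at the start. W5 rats drank L-NAME (15 mg/kg per day), which blocks the nitric oxide synthases and so raises blood pressure, with NaCl (6 g/L) to speed the injury, until urinary protein passed 1 g/mmol of creatinine. They then lived for 5 weeks without the inhibitor, so that the group holds only rats that survived both periods. The paper gives a range of many weeks for the time on L-NAME, so that its length differed between rats. CTL rats were never given L-NAME, and the paper states that they were killed alongside the other groups to match their age. The age and time on L-NAME of each rat, and whether CTL rats drank the salt, are not given in the sources used here. Kidneys taken at the stop (W0, 3 rats) or 1 week later (W1, 3 rats) serve below only to place the W5 levels. RNA came from a piece of each kidney, with the share of cortex and medulla in it not given in the sources used here, and each rat had its own Affymetrix rat gene array.

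Chronic loss of nitric oxide narrows and scars the small renal arteries and the glomeruli. Injured tubule cells lose their transporters and make osteopontin (Spp1) and kidney injury molecule 1 (Havcr1), while fibroblasts and pericytes lay down collagen types I and III and fibronectin. Tubule cells can regain their differentiated state once the insult ends, whereas interstitial matrix and the cells that make it can outlast it. The comparison of W5 with CTL asks what was still different in the kidney after the recovery period.

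No gene was called in W5 against CTL. Each array gives a log2 hybridization level per gene after RMA, the authors' normalization. Differences below are W5 minus CTL on that log2 scale unless other groups are named, and 18166 genes were tested with limma across all 12 arrays. At a Benjamini-Hochberg adjusted p under 0.05 the count was 0 (0%), and the smallest adjusted p was 0.065, for Col1a1. With the same fit 1333 genes (7.34%) had an unadjusted p under 0.05, 574 of them higher in W5 (3.16%) and 759 lower (4.18%). The paper names no test for the arrays, and its general methods give Student's t-test for comparing 2 groups. That test (the methods' t-test below) on the 6 arrays also called 0 genes after adjustment and put 1312 under an unadjusted 0.05. Other comparisons of the same fit gave many calls, with 1708 genes (9.4%) called in W0 against CTL, 548 (3.02%) in W1 against CTL and 916 (5.04%) in W5 against W0, 341 of these higher (1.88%) and 575 lower (3.17%) in W5. In W0 against CTL 4.99% of all genes were called higher and 4.41% lower, and in W1 against CTL 2.23% and 0.787%. The comparisons of W0, W1 and W5 with CTL share the CTL arrays, and their values are given side by side.

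The intervals show, for each gene taken alone, how large a difference could still be hidden. They are not adjusted for the number of genes. The mean absolute log2 difference from CTL over all genes was 0.237 in W0, 0.197 in W1 and 0.148 in W5. The median SE of a W5 difference was 0.145, and spread between rats alone also gives a mean above 0. The 95% interval of a W5 difference had a median half-width of 0.311, and for 17835 genes (98.2%) it lay wholly inside a 2-fold change in either direction. For 11581 genes (63.8%) it lay within 0.5 on the log2 scale. With 3 rats against 3 an exact permutation test, two-sided, cannot go below p = 0.1, so that non-overlap of the groups is given below as a description: the 3 W5 arrays lay above all CTL arrays for 1265 genes (6.96%) and below them for 1352 (7.44%).

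In the 6 arrays the groups were apart by a narrow gap on the first principal component and overlapped on the second. The first principal component, with 34.3% of the variance, placed the CTL rats at -6.02, -7.36 and -19.8 and the W5 rats at 26.9, 11.2 and -4.90. The third W5 rat thus fell next to the controls on this axis, and the first lay farthest from them. The second component, with 19% of the variance, placed the CTL rats at 18, 10.7 and -11.6. On it the W5 rats were at -3.68, -0.615 and -12.8, so that the third CTL rat lay next to the third W5 rat. Correlation between arrays was 0.9896 to 0.9899 within CTL, 0.9875 to 0.9918 within W5 and 0.9841 to 0.9905 between the groups. Markers of the labelled tissue were present in all 6 rats. Lrp2 of the proximal tubule was at 11.22, 11.05 and 11.10 in CTL and 11.02, 11.23 and 11.02 in W5, Umod of the thick ascending limb at 11.67, 11.71 and 11.71 in CTL and 11.67, 11.69 and 11.70 in W5, and the podocyte gene Podxl at 8.64, 8.72 and 8.91 in CTL and 8.71, 8.82 and 8.73 in W5. Lists of other tissues were small. At the unadjusted threshold 2 of 13 urothelium genes were higher and 1 lower, and 2 of 19 fat genes were higher and 2 lower. Of 13 liver genes 1 was higher and 0 lower, of 15 adrenal genes 0 and 1, and of 14 muscle genes 0 and 0. Of all genes 3.16% were higher and 4.18% lower. Albumin (Alb) was at 4.12, 4.33 and 3.72 in CTL and 3.91, 3.92 and 4.0 in W5.

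**Figure D1:**
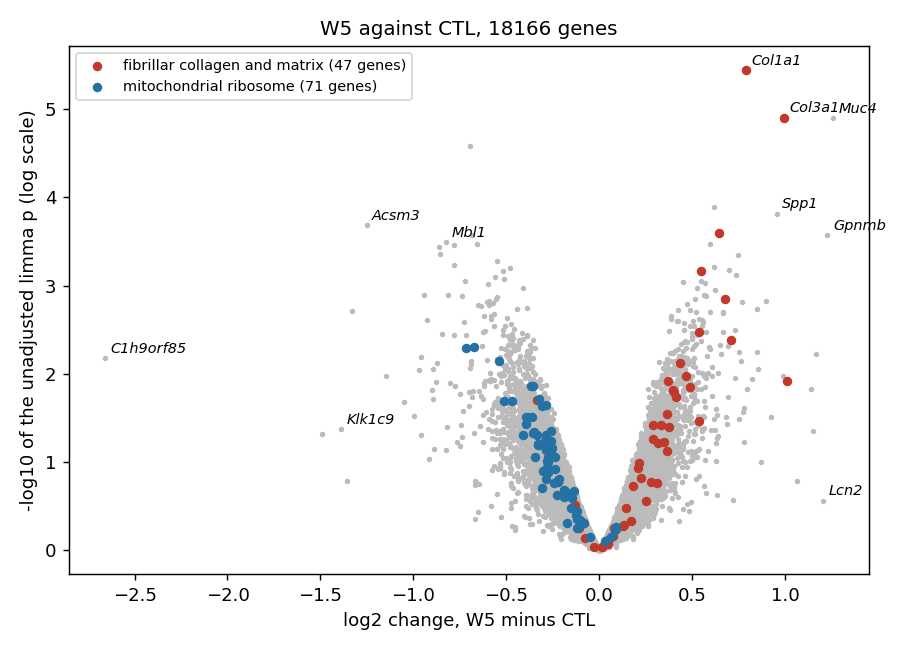
Difference of the mean log2 level (W5 minus CTL, horizontal axis) against the −log10 of the unadjusted limma p (vertical axis) for 18166 genes, with the matrix genes in red and the mitochondrial ribosome genes in blue. Col1a1, Col3a1 and Muc4 sit highest, most matrix genes lie right of 0 and most mitochondrial ribosome genes left of it.

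The 3 genes with an adjusted p under 0.1 were the interstitial collagen genes Col1a1 and Col3a1 and the mucin gene Muc4, and all 3 were higher in W5. Col1a1, which encodes the alpha 1 chain of type I collagen, was at 5.93, 6.04 and 5.96 in CTL and 6.84, 6.74 and 6.74 in W5. Each W5 rat lay above every control, and the spread within W5 was small. The difference was 0.79 ± 0.11 (SE, limma adjusted p = 0.065), a level 1.73-fold that of CTL, with a 95% interval of 0.56 to 1.02 on the log2 scale. The adjusted p of Col1a1 passed the threshold when genes with a mean log2 level under 5 were left out (0.0288), with a trended prior variance (0.0499) and with array weights (0.0186), and was 0.528 without the first W5 rat and 0.133 from the 6 arrays alone.

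Col3a1, the single chain of type III collagen, was at 6.17, 6.21 and 6.43 in CTL and 7.42, 7.19 and 7.18 in W5. The groups were again apart, and the W5 mean was 1.99-fold that of CTL with a log2 difference of 0.99 ± 0.15 (SE, limma adjusted p = 0.0761). Fn1, which encodes the adhesive matrix protein fibronectin, was at 8.14, 7.78 and 8.14 in CTL and 8.85, 8.59 and 8.56 in W5, a difference of 0.64 ± 0.13 (SE, limma adjusted p = 0.444). Fbn1, the main protein of the microfibrils that carry elastin and store TGF-beta, was at 6.37, 6.08 and 6.33 in CTL and 6.73, 6.90 and 6.80 in W5, and differed by 0.55 ± 0.13 (SE, limma adjusted p = 0.516). None of these genes overlapped between the groups, but no overlap was a condition for naming genes by their p.

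Of 47 measured genes on a list of fibrillar collagens, proteoglycans and their enzymes, 20 were higher and 1 lower at an unadjusted p under 0.05, against 3.16% and 4.18% of all genes, and 0 passed the adjusted threshold. The median log2 difference of the list was 0.291, against -0.0164 over all genes. Of its members 42 were above 0, beside 8370 of all 18166 genes. For 24 the W5 arrays lay above all CTL arrays and for 1 below them, beside 6.96% and 7.44% of all genes. Beyond the genes above, the members of smallest p included Col8a1, a short-chain collagen of vessel walls (0.68), Col1a2, the partner chain of Col1a1 (0.54), and Dcn, the small proteoglycan decorin, which binds collagen fibrils (0.71). Loxl1 (0.43) and Lox (0.49), which crosslink collagen and elastin, and Mmp12, the macrophage elastase (1.01), were also higher at that threshold, with adjusted p of 0.639, 0.653 and 0.644 from limma. The 1 lower member was the cartilage proteoglycan gene Acan at 3.52, 3.74 and 3.36 in CTL and 3.29, 3.13 and 3.20 in W5.

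The matrix list stood at nearly the same level in all W5 rats. Its mean log2 level was 6.21, 6.24 and 6.28 in CTL and 6.54, 6.54 and 6.54 in W5. The lowest W5 rat was thus above the highest control, and the W5 rats differed from one another by less than the controls did. With single arrays left out the number of matrix genes higher at the unadjusted threshold ran from 15 to 17, and with the other settings tried from 20 to 24. Itga11 and Adamts12 were not on the list and were named by their p. Itga11, the integrin by which fibroblasts grip fibrillar collagen, was at 4.35, 4.44 and 4.42 in CTL and 5.13, 4.81 and 5.06 in W5 and differed by 0.60 ± 0.13 (SE, limma adjusted p = 0.444). Adamts12, a secreted metalloprotease, was at 5.57, 5.2 and 5.03 in CTL and 5.99, 6.21 and 5.83 in W5, a difference of 0.74 ± 0.16 (SE, limma adjusted p = 0.476).

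Beside W1, the W5 mean was lower for Col1a1, Col3a1, Fn1 and Fbn1. The last 3 were called, and the adjusted p of Col1a1 lay just above the threshold, which does not set it apart from them. Of all 18166 genes 48 were called lower and 4 higher at W5 than at W1. Col1a1 had risen at W0 by 0.58 (adjusted p = 0.00376) and at W1 by 1.31 (adjusted p = 4.07e-05), and its W5 level differed from W0 by 0.21 (adjusted p = 0.332) and from W1 by -0.52 (adjusted p = 0.0593). Col3a1 had risen at W0 by 1.29 (adjusted p = 0.000161) and at W1 by 1.80 (adjusted p = 4.07e-05). Its W5 level differed from that at W0 by -0.30 (adjusted p = 0.333) and was lower than that at W1, by -0.80 (adjusted p = 0.043). Fn1 was lower at W5 than at both earlier times, with differences of -0.50 (adjusted p = 0.0421) from W0 and -0.91 (adjusted p = 0.0202) from W1. Fbn1 differed from W0 by -0.20 (adjusted p = 0.471) and was lower than at W1, by -0.66 (adjusted p = 0.0496). Itga11 differed from CTL at W0 by only 0.01 (adjusted p = 0.981), and it was higher at W5 than at W0 by 0.59 (adjusted p = 0.0157). Across the list 22 of 47 genes were called higher at W0, beside 4.99% of all genes, and between W0 and W5 6 were called lower and 1 higher, beside 3.17% and 1.88%.

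**Figure D2:**
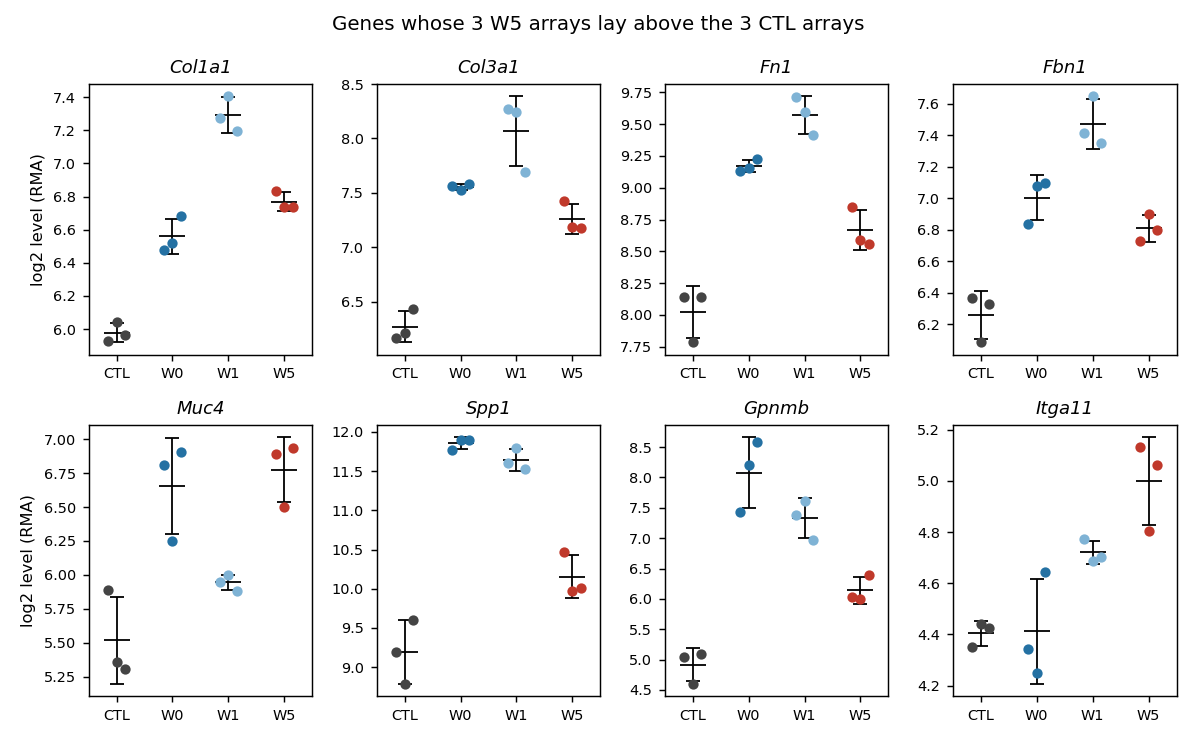
Log2 levels of 8 genes in each rat by group, CTL, W0, W1 and W5, with the mean and SD of 3 rats as bars. In every panel the 3 W5 points lie above the 3 CTL points, which was a condition for naming these genes. Spp1 and Gpnmb are lower at W5 than at W0, while Col1a1 and Muc4 were not called different between W5 and W0.

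The 5′ flanking sequences are shown for Muc4, Gpnmb and Spp1, the genes of largest difference among the 12 named as higher for which a promoter window was at hand, and for Acsm3, the largest among the 12 named as lower. Each window runs from 250 bases before to 50 bases after the RefSeq start of the gene in build GRCr8, 5′ to 3′ on the strand of the gene, and was matched by symbol for 9 of the 12 higher and 10 of the 12 lower genes. Capitals mark matches, on either strand, to TGANTCA, the letters bound by AP-1, to the CCAAT box, or to TATAAA, those of a TATA box, and no match overlaps another in these windows. The minus-strand genes are Muc4 at chr11:81558265-81558564 and Spp1 at chr14:5619755-5620054, and the plus-strand genes are Gpnmb at chr4:79340878-79341177 and Acsm3 at chr1:183564402-183564701.
Muc4: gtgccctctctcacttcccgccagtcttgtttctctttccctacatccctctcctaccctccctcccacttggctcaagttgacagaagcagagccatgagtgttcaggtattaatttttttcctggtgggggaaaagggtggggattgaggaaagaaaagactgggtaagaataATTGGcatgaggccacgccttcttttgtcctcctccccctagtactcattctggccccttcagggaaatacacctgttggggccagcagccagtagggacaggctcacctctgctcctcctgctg
Gpnmb: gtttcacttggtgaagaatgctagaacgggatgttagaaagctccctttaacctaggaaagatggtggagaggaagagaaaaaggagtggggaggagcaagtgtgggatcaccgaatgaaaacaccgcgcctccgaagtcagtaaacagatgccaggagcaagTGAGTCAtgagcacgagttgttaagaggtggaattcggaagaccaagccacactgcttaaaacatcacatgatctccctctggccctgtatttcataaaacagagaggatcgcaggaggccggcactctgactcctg
Spp1: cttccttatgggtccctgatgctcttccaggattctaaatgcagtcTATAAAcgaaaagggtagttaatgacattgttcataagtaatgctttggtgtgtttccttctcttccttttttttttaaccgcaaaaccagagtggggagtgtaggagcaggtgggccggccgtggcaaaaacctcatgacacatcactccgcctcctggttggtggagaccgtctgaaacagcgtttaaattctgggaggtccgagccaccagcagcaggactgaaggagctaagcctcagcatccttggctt
Acsm3: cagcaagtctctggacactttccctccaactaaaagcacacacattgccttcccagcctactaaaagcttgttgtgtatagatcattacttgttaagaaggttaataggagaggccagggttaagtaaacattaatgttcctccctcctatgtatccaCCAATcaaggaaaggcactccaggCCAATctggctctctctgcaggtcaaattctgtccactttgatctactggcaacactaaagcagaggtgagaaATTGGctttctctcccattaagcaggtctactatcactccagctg

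Gpnmb held a match to the AP-1 letters 87 bases before its start, Muc4 a CCAAT on the other strand at 75 bases, and Spp1 a TATAAA at 204 bases. Acsm3 had CCAAT at 92 and 68 bases before the start, and once more on the other strand after it. Over all 33469 windows of this length 7.33% held the AP-1 letters, 37.5% a CCAAT and 14.2% a TATAAA. Among the matrix genes 30 of 47 had a window, and 2, 7 and 6 of these held the 3 motifs in that order. Among the tubular injury genes 28 of 35 had one, with 5, 7 and 10 matches. A match to letters is no measure of binding, and none was made here.

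Muc4, a membrane mucin of epithelia, had the largest difference of the genes near a call. It was at 5.89, 5.36 and 5.31 in CTL and 6.89, 6.50 and 6.94 in W5, a W5 level 2.39-fold that of CTL and a log2 difference of 1.26 ± 0.19 (SE, limma adjusted p = 0.0761). The lowest W5 rat was well above the highest control. Muc4 had risen at W0 by 1.14 (adjusted p = 0.00199) and was not called different between W5 and W0, with a W5 minus W0 difference of 0.12 (adjusted p = 0.809). The level was not steady between these times. At W1 it was 5.95, 6.00 and 5.88, a difference from CTL of 0.43 (adjusted p = 0.287), and W5 minus W1 was 0.83 (adjusted p = 0.0902).

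Genes of tubular injury were mostly below their W0 level, and their list mean was still above control in every W5 rat. Of 35 members 26 were called higher at W0, beside 4.99% of all genes, and 21 of the 35 were called lower and 1 higher at W5 than at W0, beside 3.17% and 1.88%. Against CTL 10 were higher at W5 at an unadjusted p under 0.05 and 0 lower, beside 3.16% and 4.18% of all genes, with a median log2 difference of 0.227, after 0.991 at W0 and 0.749 at W1. The list mean was 7.02, 6.94 and 7.12 in CTL and 7.37, 7.17 and 7.41 in W5, with no overlap between the groups. The count of 10 was less stable than that of the matrix genes, at 4 without the first W5 rat, 6 without the third W5 rat, 5 without the second CTL rat, and 14 without the second W5 rat.

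Spp1, a secreted phosphoprotein of injured tubules, was at 9.20, 8.79 and 9.61 in CTL and 10.47, 9.98 and 10.01 in W5. The W5 rats lay above the controls, and the difference was 0.96 ± 0.19 (SE, limma adjusted p = 0.444). It had risen by 2.66 (adjusted p = 2.43e-06) at W0. Gpnmb, a glycoprotein of stressed macrophages and tubule cells, was at 5.04, 4.61 and 5.1 in CTL and 6.03, 6.00 and 6.40 in W5, a W5 level 2.34-fold that of CTL (1.23 ± 0.25 (SE, limma adjusted p = 0.444)), after a rise of 3.16 (adjusted p = 1.16e-05) at W0. Cp, the copper-carrying ferroxidase ceruloplasmin, differed by 0.60 ± 0.16 (SE, limma adjusted p = 0.583), and Vim, the intermediate filament vimentin, by 0.45 ± 0.16 (SE, limma adjusted p = 0.655).

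Havcr1 was at 4.82, 5.08 and 5.89 in CTL and 5.67, 5.79 and 5.92 in W5, and the W5 range fell within that of the controls but for the highest W5 rat. Its W5 difference was 0.53 ± 0.23 (SE, limma adjusted p = 0.672), or 0.31 without the first and 0.845 without the third CTL rat, beside a rise of 5.17 (adjusted p = 5.38e-08) at W0. Niban1, a stress-induced regulator of translation, was at 5.73, 5.72 and 5.78 in CTL and 6.38, 6.46 and 6.24 in W5 and differed by 0.62 ± 0.12 (SE, limma adjusted p = 0.444), where the W0 rise had been 2.25 (adjusted p = 1.4e-07). Lcn2, which encodes the iron-binding injury marker NGAL and was picked out after its values were seen, was at 6.32, 5.92 and 6.37 in CTL and 7.74, 7.15 and 7.33 in W5. Its groups were well apart with a log2 difference of 1.2, but the standard error of 1.06, which the fit takes from all 4 groups, gave an adjusted p of 0.823 by limma. Serpina3n, an acute phase protease inhibitor, was at 4.78, 5.51 and 5.46 in CTL and 6.89, 6.19 and 5.85 in W5 (1.06 ± 0.72 (SE, limma adjusted p = 0.76)). Its groups lay close together without overlap, and its SD was 0.41 in CTL and 0.529 in W5, beside 1.6 at W0 and 1.5 at W1. With the CTL and W5 arrays alone limma also called 0 genes.

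Basement membrane genes also had a positive median. That of 17 genes was 0.186, with 3 higher and 0 lower at the unadjusted threshold, beside 3.16% and 4.18% of all genes, and the median was 0.0827 without the second CTL rat. Col4a1 (0.34 ± 0.12 (SE, limma adjusted p = 0.654)) and Col4a2 (0.29 ± 0.12 (SE, limma adjusted p = 0.672)), the chains of the ubiquitous type IV collagen, had no overlap between the groups, and the laminin gene Lamb3 differed by 0.44 ± 0.19 (SE, limma adjusted p = 0.672) with overlap. Genes of smooth muscle, pericytes and mesangium had a median of 0.107 over 30 members, or 0.0651 without the first and 0.163 without the third CTL rat, 5 of them higher and 0 lower. These were Pdgfrb, the PDGF receptor that marks pericytes and interstitial fibroblasts (0.46), Serpine2 (0.45), Tagln, an actin-binding protein of contractile cells (0.50), Cspg4 (0.57) and Gata3 (0.35). Gata3 is also on the collecting duct and intercalated cell list, so that its value cannot be assigned to either set of cells. Pdgfrb was at 7.37, 7.18 and 7.37 in CTL and 7.79, 7.74 and 7.76 in W5, with the W5 rats above all controls. In bulk tissue a larger number of such cells and more RNA per cell cannot be told apart, which holds for all lists given here.

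Lists of immune cells had medians between 0.00565 and 0.266 in W5, where 3.16% of all genes were higher and 4.18% lower at the unadjusted threshold. Macrophage genes had a median of 0.201 over 34 members, with 4 higher and 0 lower, T and natural killer cell genes 0.266 over 25 with 7 higher and 0 lower, MHC and antigen presentation genes 0.175 over 27 with 5 and 0, and complement genes 0.13 over 20 with 3 and 0. B and plasma cell genes were at 0.0462 over 14, with 2 and 0, and neutrophil genes at 0.00565 over 14, with 0 and 0. Without the third W5 rat the median was 0.0624 for MHC and antigen presentation, 0.0781 for complement and 0.145 for B and plasma cell genes, and the neutrophil median changed sign with single arrays left out (-0.0863 to 0.0291). The macrophage median had been 0.601 at W0 and 0.839 at W1, and that of T and natural killer cells 0.209 and 0.382. Between W0 and W5 9 of 34 macrophage genes and 0 of 25 T and natural killer cell genes were called lower, beside 3.17% of all genes. At W0 15 of the macrophage genes and 1 of the T and natural killer cell genes had been called higher, beside 4.99% of all genes. Both counts of the T and natural killer cell list are near those shares.

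Laptm5, a lysosomal protein of blood-derived cells, was at 7.04, 6.90 and 7.20 in CTL and 7.65, 7.49 and 7.75 in W5, a difference of 0.58 ± 0.20 (SE, limma adjusted p = 0.644). Ccr2, the receptor that brings monocytes into tissue, was at 5.14, 5.42 and 5.12 in CTL and 6.05, 5.77 and 6.25 in W5 (0.79 ± 0.29 (SE, limma adjusted p = 0.653)), and Vsig4, a complement receptor of resident macrophages, differed by 0.34 ± 0.13 (SE, limma adjusted p = 0.672). Their groups did not overlap, but the levels of Vsig4 were low, at 4.05, 3.69 and 4.07 in CTL and 4.32, 4.25 and 4.24 in W5. Among lymphocyte genes Il7r, the interleukin 7 receptor (0.51), Cd8a, the coreceptor of cytotoxic T cells (0.37), Nkg7 (0.33) and Lck (0.35) had the smallest p, with adjusted p of 0.672 each from limma. For Nkg7 and Lck the highest control reached into the W5 range.

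The MHC class II genes RT1-Db1 (0.45) and RT1-Ba (0.56), the peptide-loading gene RT1-DMa (0.33) and Nlrc5, an activator of class I genes (0.52), all had W5 arrays above the controls. C7, a component of the membrane attack complex, was at 8.06, 8.49 and 8.56 in CTL and 9.10, 9.35 and 9.36 in W5, a difference of 0.89 ± 0.23 (SE, limma adjusted p = 0.578). The initiating proteases C1s and C1r differed by 0.54 and 0.39. Chemokines lay on both sides of control. Ccl19 (1.14) and Ccl21 (0.82), which draw T cells and dendritic cells to lymphoid tissue, and the neutrophil attractant Cxcl1 (0.51) were above the controls in all W5 rats, whereas Cxcl11, an interferon-induced ligand of CXCR3, was below them at 7.64, 7.27 and 7.53 in CTL and 6.56, 6.82 and 7.15 in W5 (-0.63 ± 0.16 (SE, limma adjusted p = 0.582)). Over 46 chemokine and cytokine genes 6 were higher and 2 lower, beside 3.16% and 4.18% of all genes, with a median of 0.133.

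**Figure D3:**
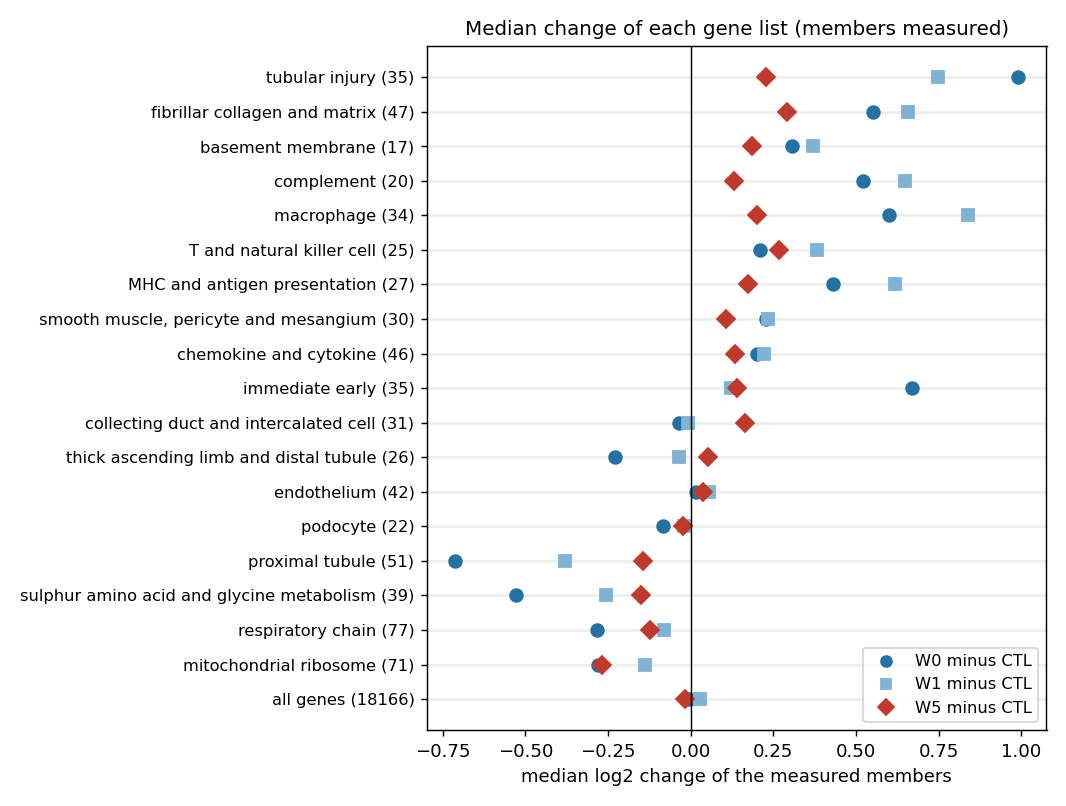
Median log2 difference from CTL of the gene lists named and of all genes at W0, W1 and W5 (horizontal axis), with the number of measured members in brackets. The 3 times share the CTL arrays. The medians at W0 and W5 are 0.991 and 0.227 for tubular injury, -0.712 and -0.145 for proximal tubule and -0.279 and -0.267 for the mitochondrial ribosome.

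The lowest median of any list was that of the mitochondrial ribosome, which translates the proteins encoded in mitochondrial DNA. Of 71 members 66 were below 0 and 20 were lower and 0 higher at an unadjusted p under 0.05, with a median log2 difference of -0.267 and no member called. Of all 18166 genes 9796 were below 0, 4.18% were lower and 3.16% higher. The list mean was 7.63, 7.73 and 7.85 in CTL and 7.32, 7.44 and 7.70 in W5. The third W5 rat lay among the controls and the first was lowest. The count of 20 rested on single rats, at 4 without the first W5 rat, 8 without the second, 38 without the third W5 rat, 10 without the second CTL rat and 7 without the third CTL rat, and the methods' t-test gave 4.

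Mrps33, a protein of the small subunit, was at 7.99, 8.18 and 8.51 in CTL and 7.08, 7.41 and 8.04 in W5 and differed by -0.72 ± 0.22 (SE, limma adjusted p = 0.639), with the third W5 rat inside the control range. Mrps31 was at 7.52, 7.72 and 7.72 in CTL and 6.72, 7.13 and 7.50 in W5 (-0.54 ± 0.17 (SE, limma adjusted p = 0.639)) and Mrpl50 of the large subunit at 7.49, 7.55 and 7.72 in CTL and 6.99, 7.23 and 7.44 in W5 (-0.37 ± 0.13 (SE, limma adjusted p = 0.65)), both with no overlap, and Mrps31 was at -0.337 without the first W5 rat. Mrps21l differed by -0.67 ± 0.20 (SE, limma adjusted p = 0.639). Genes of the respiratory chain lay the same way, with a median of -0.123 over 77 genes, or -0.0815 without the first W5 rat. Of these 7 were lower and 0 higher, beside 4.18% and 3.16% of all genes. Ndufv3, an accessory subunit of complex I, was at 10.57, 10.60 and 10.64 in CTL and 10.35, 10.22 and 10.17 in W5, a difference of -0.36 ± 0.11 (SE, limma adjusted p = 0.639), and had been -0.81 (adjusted p = 0.000315) from CTL at W0. Ndufa2 (-0.55), Ndufv2 (-0.33) and Uqcrfs1, the iron-sulfur protein of complex III (-0.31), came next. Genes of the cytosolic ribosome were at a median of -0.0252 over 130 members, with 6 lower and 0 higher, beside the same shares.

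**Figure D4:**
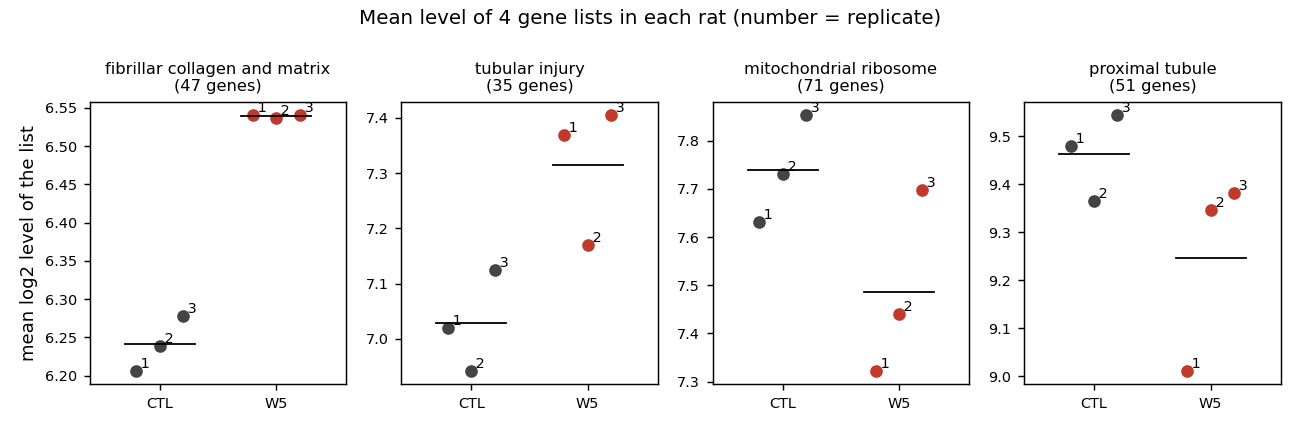
Mean log2 level of 4 gene lists in each rat (vertical axes differ), with the replicate number beside each point and the group mean as a line. The matrix list is at 6.54 in each W5 rat and at 6.28 or less in CTL, whereas the mitochondrial ribosome and proximal tubule lists overlap between the groups.

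Proximal tubule genes were no more often past the unadjusted threshold than all genes. Of 51 members 2 were lower and 0 higher, beside 4.18% and 3.16% of all genes. More of them lay on the lower side, with 42 below 0, beside 9796 of all 18166 genes. For 10 members the W5 arrays lay below all CTL arrays and for 0 above them, beside 7.44% and 6.96% of all genes. Their median was -0.145, but -0.0522 without the first W5 rat, and -0.22 and -0.221 without the second CTL and the second W5 rat. The list had a median of -0.712 at W0, where 24 genes were called lower, beside 4.41% of all genes, and 17 of the 51 were called higher and 2 lower at W5 than at W0, beside 1.88% and 3.17%. The members past the threshold were Pck1, the rate-limiting enzyme of gluconeogenesis (-0.39 ± 0.15 (SE, limma adjusted p = 0.672)), and Acmsd, an enzyme of tryptophan breakdown (-0.43 ± 0.18 (SE, limma adjusted p = 0.672)). Agmat (-0.38) and Glyatl2 (-0.39) followed. The list mean was 9.48, 9.37 and 9.55 in CTL and 9.01, 9.35 and 9.38 in W5, and the first W5 rat stood apart.

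The same rat was lowest for a pair of transporters, of which Slc5a12 was picked out after its values were seen. Slc5a2, the glucose transporter SGLT2, was at 9.0, 8.33 and 8.61 in CTL and 6.90, 8.58 and 8.81 in W5, and Slc5a12, a lactate transporter, at 9.15, 8.84 and 8.94 in CTL and 6.54, 8.75 and 8.97 in W5. The other W5 rats lay within or near the control range in both. Without the first W5 rat the log2 difference of Slc5a2 was 0.0452 in place of -0.55, and that of Slc5a12 -0.114 in place of -0.89. Lrp2, of the same segment, was at 11.02 in that rat and in the third W5 rat, beside 11.05 in the lowest control. The region of kidney that entered each sample is not given in the sources used here. Enzymes of sulphur amino acid and glycine metabolism, which are rich in the proximal tubule, had a median of -0.15 over 39 genes. Of these 3 were lower and 0 higher, beside 4.18% and 3.16% of all genes. Dmgdh, which oxidises dimethylglycine, differed by -0.50 ± 0.17 (SE, limma adjusted p = 0.644) and Prodh2, a hydroxyproline dehydrogenase, by -0.55 ± 0.21 (SE, limma adjusted p = 0.672). The first W5 rat was lowest in both, and without it the differences were -0.292 and -0.272 and the median of the list -0.0748.

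Among the lower genes named by the rule Acsm3, a mitochondrial acyl-CoA synthetase, had the smallest p. It was at 9.59, 9.42 and 10.10 in CTL and 8.92, 8.18 and 8.26 in W5, a CTL level 2.38-fold that of W5 (-1.25 ± 0.25 (SE, limma adjusted p = 0.444)), and differed from its W0 level by -0.08 (adjusted p = 0.913). Mbl1, a mannose-binding lectin of the complement system, was at 7.53, 7.38 and 7.95 in CTL and 6.76, 6.95 and 6.67 in W5 (-0.83 ± 0.17 (SE, limma adjusted p = 0.444)). Slc6a4, the serotonin transporter, was at 6.80, 6.99 and 6.93 in CTL and 6.18, 6.50 and 6.38 in W5 (-0.55 ± 0.12 (SE, limma adjusted p = 0.516)), and was higher at W5 than at W0 by 0.76 (adjusted p = 0.00285). Proc, the anticoagulant protein C, was at 7.69, 7.69 and 7.85 in CTL and 7.28, 7.26 and 7.16 in W5 (-0.51 ± 0.12 (SE, limma adjusted p = 0.541)). In each of these the groups did not overlap, which the rule required.

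**Figure D5:**
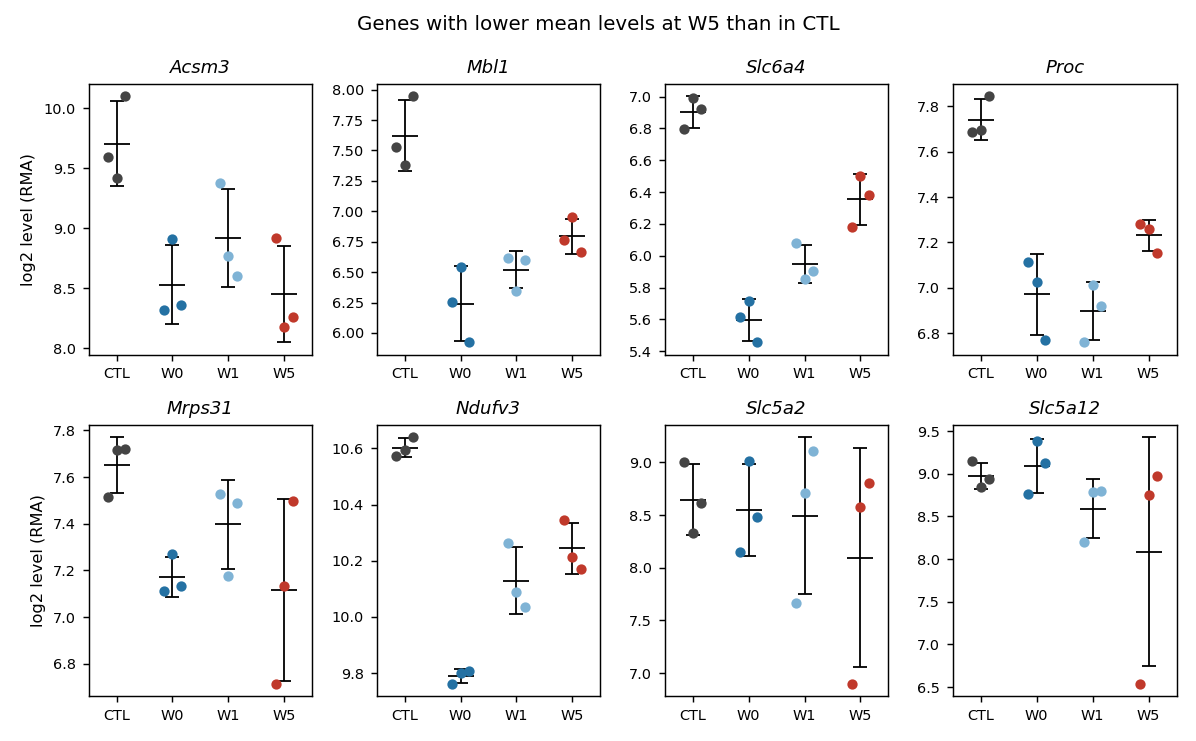
Log2 levels of 8 genes in each rat by group, with the mean and SD of 3 rats as bars. Acsm3, Mbl1, Slc6a4, Proc, Mrps31 and Ndufv3 have all W5 points below the CTL points. In Slc5a2 and Slc5a12 1 W5 rat is at 6.90 and 6.54 while the other two are level with CTL.

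The remaining lower genes named by the rule were Hspa12a, a distant member of the Hsp70 family (-0.52), Plekhj1 (-0.68), Zc3h15 (-0.66), Rtp3 (-0.78), Bloc1s2, a subunit of a complex of lysosome-related organelles (-0.56), and the olfactory receptor genes Or2ag16b (-0.78), Or10x1 (-0.86) and Or6c74 (-0.86). Their limma adjusted p ran from 0.444 to 0.541. The levels of the olfactory receptors were low, from 2.6 to 4.36. Over 1185 genes of that family 41 were higher and 41 lower at an unadjusted p under 0.05, beside 3.16% and 4.18% of all genes. The remaining higher ones were Rftn1, a lipid raft protein (0.62 ± 0.14 (SE, limma adjusted p = 0.516)), and Pinlyp (0.70 ± 0.16 (SE, limma adjusted p = 0.516)). In all 102 genes were higher and 97 lower with no overlap, a log2 difference of at least 0.5 and an unadjusted p under 0.05, 6 and 4 of them loci without a gene name.

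A 2-fold difference with an unadjusted p under 0.05 was reached by 13 genes (0.0716%), 6 higher and 7 lower. The higher ones were Muc4, Gpnmb, Mmp12, Ccl19, Gp2, a relative of uromodulin (1.17), and Slpi, an inhibitor of neutrophil elastase (1.15). The lower ones were Acsm3 and 6 whose values were uneven between rats, Bmal1 (-1.05), C1h9orf85 (-2.66), Resp18 (-1.49), Klk1c9 (-1.39), Rps26l1 (-1.33) and Hrg, the plasma protein histidine-rich glycoprotein (-1.15). C1h9orf85 was at 6.83, 7.83 and 7.64 in CTL and 3.20, 3.96 and 7.18 in W5, so that the third W5 rat was level with the controls. Klk1c9, one of the clustered and closely alike tissue kallikrein genes, was at 6.97, 4.26 and 7.99 in CTL and 4.66, 5.02 and 5.38 in W5, with the second CTL rat below every W5 rat. Without that rat it was called (-2.46, limma adjusted p = 0.0142), and Rps26l1, at 5.72, 6.07 and 6.01 in CTL and 4.30, 5.71 and 3.80 in W5, was called without the second W5 rat (-1.88, adjusted p = 0.0159). Without the third CTL rat Bmal1, Hrg and Klk1c9 were at -0.566, -0.579 and -0.598, Resp18 was at -0.706 without the third W5 rat and Slpi at 0.745 without the first CTL rat. The count of 13 was 16 to 23 with single arrays left out.

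Of 26 genes of the thick ascending limb and distal tubule 2 were higher and 0 lower at the unadjusted threshold, beside 3.16% and 4.18% of all genes, and their median of 0.0539 was -0.00581 without the first W5 rat. Egf, made in the distal nephron and low in injured kidneys, had differed at W0 by -1.58 (adjusted p = 0.0088) and was at 10.15, 10.18 and 10.50 in CTL and 10.49, 10.16 and 10.16 in W5 here, a difference of -0.00 ± 0.34 (SE, limma adjusted p = 0.998) with an interval of -0.72 to 0.72. Umod had differed at W0 by -0.66 (adjusted p = 0.00941) and at W5 by -0.01 ± 0.14 (SE, limma adjusted p = 0.99). Trpv5, the apical calcium channel of the distal tubule, was at 5.1, 5.44 and 5.34 in CTL and 6.15, 5.83 and 5.90 in W5, with all W5 rats above the controls (0.66 ± 0.18 (SE, limma adjusted p = 0.583)). Podocyte genes had a median of -0.0221 over 22 members and endothelial genes 0.0369 over 42, with 0 and 0, and 1 and 1, higher and lower at the unadjusted threshold, and both medians changed sign with single arrays left out (-0.021 to 0.0126 and -0.00689 to 0.061). Nphs1, which encodes the slit diaphragm protein nephrin, was at 6.59, 6.76 and 6.59 in CTL and 6.65, 6.48 and 6.51 in W5 (-0.10 ± 0.12 (SE, limma adjusted p = 0.886)). Collecting duct and intercalated cell genes had a median of 0.164 over 31, or 0.0916 without the first W5 rat. Of these 28 were above 0, beside 8370 of all 18166 genes, and 1, Gata3, was higher and 0 lower at that threshold.

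The nitric oxide synthases, the targets of the inhibitor, overlapped between the groups. Nos1, Nos2 and Nos3 differed by 0.07, 0.07 and 0.00, with intervals of -0.25 to 0.38, -0.26 to 0.40 and -0.33 to 0.34, and each changed sign with at least 1 array left out. Ism1, the secreted isthmin-1, was spread across the W5 rats at 6.12, 6.02 and 5.68 in CTL and 5.3, 5.90 and 6.29 in W5, and differed by -0.11 ± 0.21 (SE, limma adjusted p = 0.926) with an interval of -0.56 to 0.33, or by 0.15 without the first W5 rat. Its candidate receptors Hspa5 and Itgb5 differed by -0.27 ± 0.18 (SE, limma adjusted p = 0.759) and -0.02 ± 0.12 (SE, limma adjusted p = 0.976). Fgb, the fibrinogen beta chain, had risen at W0 by 4.22 (adjusted p = 1.4e-07) and at W5 was at 4.76, 5.41 and 4.93 in CTL and 5.34, 5.1 and 5.66 in W5, with overlap (0.33 ± 0.22 (SE, limma adjusted p = 0.75)).

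The last sets were those of blood and of the clock. The haemoglobin genes Hbb-b1 and Hba-a1 were at 10.21, 10.66 and 9.99 in CTL and 9.25, 9.74 and 9.25 in W5 and at 11.44, 11.79 and 11.15 in CTL and 10.98, 11.01 and 10.76 in W5, differences of -0.88 ± 0.28 (SE, limma adjusted p = 0.644) and -0.54 ± 0.21 (SE, limma adjusted p = 0.672), and all W5 rats lay below the controls. These were the 2 of 11 erythroid genes past the unadjusted threshold, where 3.16% of all genes were higher and 4.18% lower. Of 24 genes of the circadian clock 2 were higher and 3 lower, beside the same shares of all genes. Bmal1, the activator of the clock, was at 6.47, 5.59 and 7.48 in CTL and 5.57, 5.55 and 5.27 in W5, and the controls were far more spread than the W5 rats, so that without the third CTL rat the difference was -0.566 in place of -1.05. Dbp and Per3, whose transcripts peak in a phase opposite to Bmal1, differed by 0.62 ± 0.28 (SE, limma adjusted p = 0.672) and 0.47 ± 0.18 (SE, limma adjusted p = 0.672), and Cry1 by -0.42 ± 0.16 (SE, limma adjusted p = 0.672). Without the third CTL rat Dbp was at 0.243 and Per3 at 0.306. The hour at which each rat was killed is not given in the sources used here.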

How the data were processed

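Kidney RNA of 12 rats was hybridized on 1 Affymetrix array each, after NuGEN amplification. The deposited values are log2 levels per probeset that the authors normalized with RMA. The version of RMA and the batches are not given in the sources used here. The number of arrays limits the precision, since an array has no read depth. Of 20944 probesets 18510 carry 1 gene symbol in the platform annotation, 575 several and 1859 none. Probesets with 1 symbol were kept, and for genes with several the probeset of highest mean over the 12 arrays was taken, which left 18166 genes (array medians 5.75 to 5.92). Group means were compared with limma 3.58.1 (R 4.3.3), lmFit and eBayes, all 4 groups in 1 fit, with p-values adjusted over all genes by Benjamini-Hochberg and a threshold of 0.05. SE and 95% intervals come from that fit, with 13.8 degrees of freedom. SD is over 3 rats. Nothing says that replicates shared a batch. The code was tested on simulated data.

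Genes named are called genes, filled to 12 per direction by smallest p among genes with no overlap of the arrays and a log2 difference of at least 0.5, then up to 4 members of each list by size of the moderated t, and genes on which the model turns. Unnamed loci were only counted. The comparison, the gene lists and the tests were chosen with earlier results of these data known. Alternatives were median centring, repeated quantile normalization, a filter at a mean log2 level of 5, the mean of probesets, the 6 arrays alone, trended or robust prior variance, array weights, a replicate block, single arrays left out and the methods' t-test. All probesets as features were added after seeing the data. Some members of the lists are not reported here. Promoter windows come from RefSeq (GRCr8).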

Additional observations from a re-analysis of the deposited data

How the results depend on the processing

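Most settings left the count of genes called in W5 against CTL at 0. It was 1 with genes under a mean log2 level of 5 left out and with a trended prior variance (Col1a1, 0.791 in both), 2 with array weights (Col1a1 at 0.778 and the vomeronasal receptor gene Vom2r59, at -0.72, seen only there), and 0 to 1 with single arrays left out, where the calls were Klk1c9 (-2.46) and Rps26l1 (-1.88). With all 20944 probesets as features, chosen after seeing the data, it stayed at 0 and 1514 were under an unadjusted 0.05. Genes under an unadjusted p of 0.05 numbered 2505 with array weights, which gave the second W5 array a weight of 2.81, and 742 to 1865 with single arrays left out. The 2-fold count of 13 was 7 by the methods' t-test and 16 to 23 with single arrays left out.

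Mitochondrial ribosome genes lower at the unadjusted threshold numbered 10 after repeated quantile normalization, 37 with array weights, 4 by the methods' t-test and 4 to 38 with single arrays left out. Tubular injury genes higher ranged from 4 to 14 with single arrays left out, and matrix genes from 15 to 17. The cause of these moves was not tested.

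Same-numbered arrays of CTL and W5 deviated from their group means with r of 0.113, 0.0382 and 0.172. With 3 arrays a group and the batches not given, these values cannot settle whether the numbers pair the rats. With a replicate block 0 genes were called, 1539 were under an unadjusted 0.05 and 12 were 2-fold, with 21 matrix and 22 mitochondrial ribosome genes. The smallest limma adjusted p was then 0.121, in place of 0.065.

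Among the single genes 18 values out of all settings had the opposite sign. With repeated quantile normalization these were Itgb5 (0.0654), Nos3 (-0.0202), Egf (0.0583) and Umod (0.0194). Nos3 was at -0.000717 with median centring and -0.00358 with array weights. With single arrays left out Nos3 ran from -0.035 to 0.0436, Nos2 from -0.0842 to 0.216, Nos1 from -0.0325 to 0.227, Egf from -0.113 to 0.11, Itgb5 from -0.0622 to 0.0124, Slc5a2 from -0.908 to 0.0452 and Ism1 from -0.343 to 0.15. Arrays have no read depth, and the median half-width of a 95% interval, 0.311, limits what 3 rats a group can show.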

Other observations

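Among 35 immediate early genes, which neurons and stressed epithelia switch on within minutes, the median log2 difference was 0.14 with 3 higher and 0 lower at an unadjusted p under 0.05, beside 3.16% and 4.18% of all genes. It was 0.0594 without the third CTL rat. At W0 the median was 0.668, and 16 were called higher, beside 4.99% of all genes. Egr1, a zinc finger factor of that class, was at 8.10, 7.29 and 7.25 in CTL and 8.94, 8.14 and 8.33 in W5, and all W5 rats lay above the controls (0.92 ± 0.39 (SE, limma adjusted p = 0.672)). Ier3 differed by 0.34 ± 0.14 (SE, limma adjusted p = 0.672), or by 0.215 without the first W5 rat. Acute phase genes had a median of 0.126 over 22 members, or 0.196 without the third CTL rat, with 3 higher and 1 lower.

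Of 45 heat shock and unfolded protein genes 37 were below 0, beside 9796 of all 18166 genes. The median of this list was -0.128, with 0 higher and 1 lower. Among 44 fasting and PPAR target genes 2 were higher and 3 lower, beside 3.16% and 4.18% of all genes, and 32 were below 0. Their median was -0.147, or -0.0383 without the first W5 rat and -0.251 without the third W5 rat. Ucp2, an inner mitochondrial membrane carrier, was at 8.59, 8.46 and 8.64 in CTL and 9.13, 8.92 and 8.99 in W5 with no overlap (0.45 ± 0.14 (SE, limma adjusted p = 0.639)), while Acot1, a fatty acyl-CoA thioesterase, was at 7.24, 7.52 and 7.47 in CTL and 5.93, 6.64 and 7.46 in W5, so that the third W5 rat was level with the controls (-0.74 ± 0.30 (SE, limma adjusted p = 0.672), or -0.365 without the first W5 rat). Of 47 cell cycle genes 0 were higher and 1 lower at W5, after 18 called higher and 0 lower at W1, beside 2.23% and 0.787% of all genes. Interferon response genes had a median of 0.1 over 41 members, with 3 higher and 2 lower, and the median changed sign to -0.0325 without the second CTL rat.

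The 2434 probesets without a single gene symbol were left out of the comparison. In a fit over all probesets 181 of them (7.44%) had an unadjusted limma p under 0.05, 0 had an adjusted p under 0.05, and 3 reached a 2-fold difference.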
